A study of Mus musculus with 16 samples.

Results

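The serum- and glucocorticoid-regulated kinases Sgk1 and Sgk3, the ubiquitin ligases Nedd4l and Nedd4, and the kinase substrate Ndrg1 were examined in the mouse dorsal raphe nucleus (DRN), the midbrain nucleus rich in serotonin neurons. These 5 genes were chosen by gene symbol from the 14504 genes of the deposited table, with their responses to dexamethasone (DEX) and stress already known. Those responses are therefore described, and the calls and intervals given for them are no independent test. All 5 were listed, each with at least 172 reads in every library. Ndrg1 is not a ubiquitin ligase and was included as a substrate of the kinases.

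PolyA RNA was sequenced from male C57BL/6 mice aged 10 to 12 weeks, 1 library per animal, in 16 libraries. Controls (con) were not defeated and were housed singly before the experiment, whereas the other mice met daily social defeat for 30 days and were split by clustering of their behavior into passive (PS) and active (AS) coping strategies. Each mouse was given saline or DEX, a synthetic agonist of the glucocorticoid receptor, at 2 mg/kg, and tissue was taken 6 h later. The saline groups held 3 control, 2 PS and 3 AS libraries and the DEX groups 3 control, 3 PS and 2 AS libraries. A library name joins its group and its title number, as in con_sal_102. The tissue was punched from frozen sections, so every library mixed neurons and glia. The study left out DEX libraries of stressed mice in which the serotonin gene Tph2 was low. The paper counts more DRN libraries than the 16 analysed here.

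SGK kinases belong to the AGC family and resemble Akt. They are switched on by phosphorylation through mTORC2 and PDK1, downstream of PI3-kinase, and SGK1 protein is short-lived. NEDD4L (NEDD4-2) and NEDD4 attach ubiquitin to ion channels and transporters and send them to degradation, and phosphorylation of NEDD4L by SGK lets 14-3-3 proteins bind it and spares the channels. Phosphorylated NDRG1 is a common readout of SGK activity, but mRNA levels carry no information on phosphorylation.

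Sgk1 is a classical target of the glucocorticoid receptor, so its promoters were read for the receptor's binding motif. The sequences are RefSeq promoter windows on GRCm38.p6, from 250 bases before to 50 bases after a transcript start. Sgk1 had 6 windows and Nedd4 had 2, and Sgk3 and Ndrg1 had no entry. The full element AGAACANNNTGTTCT, which reads the same on both strands, was found in 3 of 32851 windows (0.00913%), and 1 of these belonged to Sgk1. The hexamer AGAACA, or TGTTCT on the other strand, was in 19.0% of all windows, in 3 of the 6 Sgk1 windows and in 1 of the 2 Nedd4 windows. It is contained at both ends of the full element. Shown are the Sgk1 window with the full element, the Sgk1 window at the outermost start and the Nedd4 window with the hexamer, with the motif letters in capitals.

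Sgk1 inner start, chr10:21993640-21993939, plus strand: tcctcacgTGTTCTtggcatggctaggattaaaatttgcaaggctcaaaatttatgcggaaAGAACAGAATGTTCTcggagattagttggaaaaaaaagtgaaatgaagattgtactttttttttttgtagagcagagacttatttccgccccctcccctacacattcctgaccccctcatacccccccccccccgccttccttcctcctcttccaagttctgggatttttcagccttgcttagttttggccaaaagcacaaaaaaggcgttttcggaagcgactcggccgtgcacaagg
Sgk1 outermost start, chr10:21881934-21882233, plus strand: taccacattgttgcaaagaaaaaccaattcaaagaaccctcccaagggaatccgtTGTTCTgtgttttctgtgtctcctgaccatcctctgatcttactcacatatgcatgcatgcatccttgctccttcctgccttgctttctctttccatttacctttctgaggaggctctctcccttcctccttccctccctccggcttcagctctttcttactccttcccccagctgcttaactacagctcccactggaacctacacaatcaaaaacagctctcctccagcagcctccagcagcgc
Nedd4 inner start, chr9:72693048-72693347, plus strand: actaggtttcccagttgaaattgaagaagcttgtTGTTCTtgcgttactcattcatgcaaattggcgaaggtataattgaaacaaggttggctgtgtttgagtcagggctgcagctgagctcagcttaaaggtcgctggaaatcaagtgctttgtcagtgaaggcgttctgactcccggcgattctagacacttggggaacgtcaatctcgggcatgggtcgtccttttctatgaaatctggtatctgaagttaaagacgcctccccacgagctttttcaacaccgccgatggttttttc

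The full element lay at chr10:21993701-21993715, from 189 to 175 bases before the start of that window's transcript. These are matches of letters and say nothing on binding, and counts per gene do not tell which start was used.

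In GRCm38, Sgk1 (ENSMUSG00000019970.15) spans chromosome 10 from 21882184 to 21999903 on the plus strand and Sgk3 (ENSMUSG00000025915.14) spans chromosome 1 from 9798107 to 9900845 on the plus strand. Nedd4l (ENSMUSG00000024589.18) spans chromosome 18 from 64887705 to 65217828 on the plus strand and Nedd4 (ENSMUSG00000032216.15) chromosome 9 from 72662346 to 72749852 on the plus strand. Ndrg1 (ENSMUSG00000005125.13) spans chromosome 15 from 66929318 to 66969640 on the minus strand. Antisense genes share 277 exonic bases with Nedd4l (A330084C13Rik) and 419 and 137 with Ndrg1 (Gm17035 and Gm2895). The paper reports high strand specificity for each sample, but the strand setting of the counting is not given in the sources used here. If the strand was not used, a share of the Nedd4l and Ndrg1 reads could stem from those genes. A330084C13Rik, Gm17035 and Gm2895 were not among the listed genes. No gene shared exonic bases with Sgk1, Sgk3 or Nedd4.

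Levels were compared between genes as normalized counts per kb of exon, where a normalized count is a read count divided by the size factor of its library. Nedd4 was the most abundant of the 5 genes, with group means from 2308 to 2799 per kb. Ndrg1 followed in the control saline group at 683 ± 73.1 per kb (SD, n = 3), above Sgk1 at 413 ± 14 (n = 3), Nedd4l at 154 ± 20.6 (n = 3) and Sgk3 at 18.5 ± 5.57 (n = 3). The libraries of neighbors in this order did not overlap in control saline. After DEX the order of Ndrg1 and Sgk1 was inverted, with Sgk1 at 1167 ± 108 per kb and Ndrg1 at 635 ± 74.2 in controls (n = 3 each). Sgk3, at 97.9 ± 17.2 per kb in the control DEX group (n = 3), stayed below Nedd4l at 192 ± 23.5 (n = 3).

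**Figure D1:**
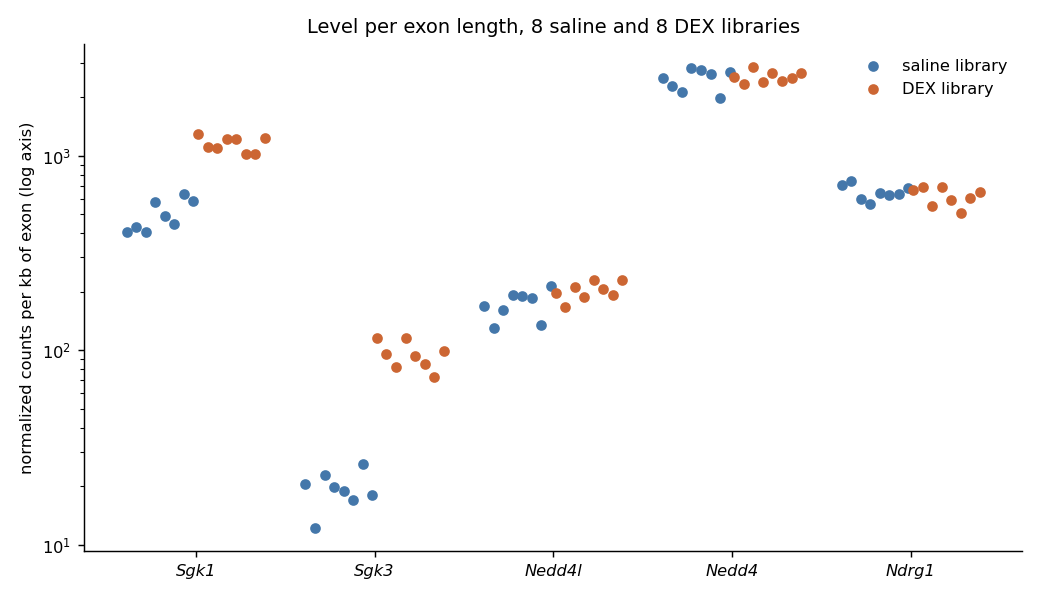
Normalized counts per kb of exon on a log axis for the 5 genes, with 1 point per library (8 saline and 8 DEX libraries). Nedd4 lies highest throughout, Sgk1 lies below Ndrg1 in most saline libraries and above it in all DEX libraries, and Sgk3 lies lowest.

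Sgk1 stood at 1988 normalized counts in con_sal_102, 2102 in con_sal_104 and 1978 in con_sal_114, and at 6333 in con_dex_101, 5445 in con_dex_116 and 5389 in con_dex_122. In PS mice it was at 2840.4 in PS_sal_62 and 2406 in PS_sal_68, and at 5982 in PS_dex_34, 5996 in PS_dex_6 and 4995 in PS_dex_64. In AS mice it was at 2188 in AS_sal_14, 3127 in AS_sal_40 and 2884 in AS_sal_8, and at 5029 in AS_dex_38 and 6026 in AS_dex_42. Every DEX library lay above every saline library, from 4995 upward against 3127 at most.

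The Sgk1 mean was 2.82-fold higher after DEX in controls, a log2 difference of 1.50 (SE 0.13), and 2.16-fold higher in PS mice, at 1.11 (SE 0.15). In AS mice it was 2.04-fold higher, at 1.03 (SE 0.15). These folds are ratios on the scale of log2(normalized count + 1). The 3 DEX groups had nearly equal means, at 5722 ± 529.7 in controls (SD, n = 3), 5658 ± 574 in PS mice (n = 3) and 5527 ± 705 in AS mice (n = 2).

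The saline groups differed more than the DEX groups did. The Sgk1 mean was 2023 ± 68.6 normalized counts in control saline (n = 3), 2623 ± 307 in PS saline (n = 2) and 2733 ± 487 in AS saline (n = 3), and all 5 saline libraries of stressed mice lay above the 3 of controls. The log2 difference from control saline was 0.37 (95% interval 0.05 to 0.69) for PS and 0.42 (0.13 to 0.70) for AS. Neither was called at an adjusted p under 0.1. These intervals are a description, because the stress response of Sgk1 was known when it was chosen.

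Sgk3, whose protein binds endosomal membranes through a phosphoinositide-binding domain, had the largest difference of the 5 genes. It stood at 294 normalized counts in con_sal_102, 175 in con_sal_104 and 326 in con_sal_114, and at 1661 in con_dex_101, 1369 in con_dex_116 and 1171 in con_dex_122. In PS mice it was at 284 in PS_sal_62 and 272 in PS_sal_68, and at 1656 in PS_dex_34, 1336 in PS_dex_6 and 1214 in PS_dex_64. In AS mice it was at 242 in AS_sal_14, 374 in AS_sal_40 and 258 in AS_sal_8, and at 1041 in AS_dex_38 and 1414 in AS_dex_42. The lowest DEX library lay far above the highest saline library, and the saline groups overlapped one another.

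The Sgk3 mean was higher after DEX in every phenotype, from a low base. It was 5.39-fold higher after DEX in controls (log2 difference 2.43, SE 0.24), 4.98-fold in PS mice (2.32, SE 0.27) and 4.23-fold in AS mice (2.08, SE 0.27). Averaged over the 3 phenotypes the log2 difference was 2.28 (SE 0.15), which ranked 8 from the top among all 14504 genes, and that of Sgk1, 1.21 (SE 0.08), ranked 85. Among the 12863 genes with a mean of at least 100 normalized counts the ranks were 6 and 36.

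The difference in Sgk3 exceeded that in Sgk1 relative to its own level. The ratio of Sgk3 to Sgk1, both per kb, was 0.0398 ± 0.00960 over the 8 saline libraries (range 0.0286 to 0.0565) and 0.0820 ± 0.00811 over the 8 DEX libraries (range 0.0709 to 0.0948), without overlap. Sgk1 thus remained the more abundant kinase transcript in every library. Stress was not accompanied by a separation in Sgk3, with log2 differences from control saline of 0.12 (95% interval -0.46 to 0.69) in PS and 0.16 (-0.35 to 0.67) in AS.

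**Figure D2:**
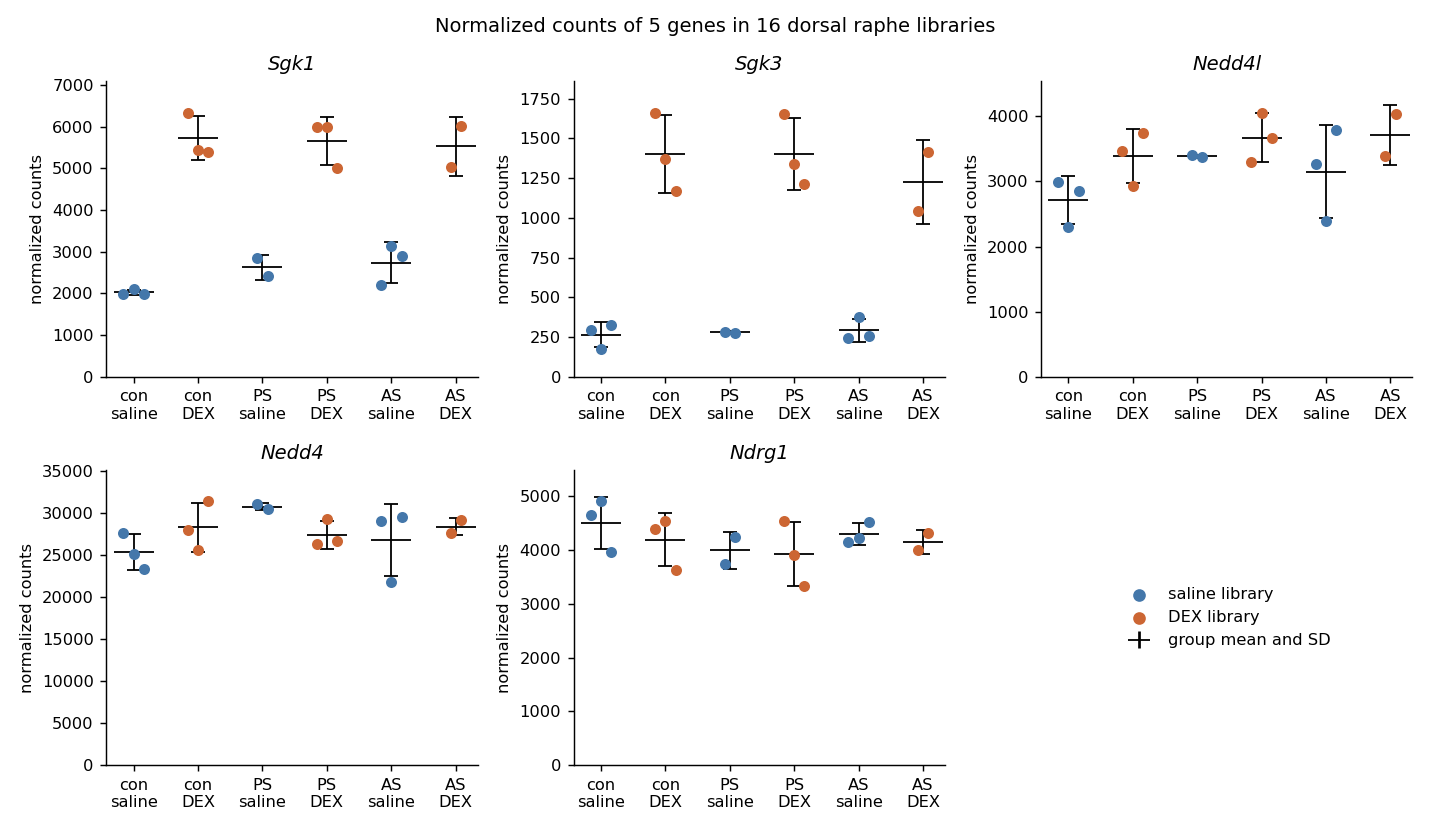
Normalized counts of the 5 genes in each library (points), with the mean and SD of each of the 6 groups (black); each panel has its own linear axis from 0. Sgk1 and Sgk3 separate DEX from saline libraries in all 3 phenotypes. Nedd4 does so only in PS mice, where it is lower after DEX, and Nedd4l and Ndrg1 in no phenotype.

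Nedd4l, the ligase that limits epithelial and voltage-gated sodium channels at the membrane, showed a small difference in the direction of the kinases. It stood at 2991 normalized counts in con_sal_102, 2305 in con_sal_104 and 2856 in con_sal_114, and at 3466 in con_dex_101, 2936 in con_dex_116 and 3753 in con_dex_122. In PS mice it was at 3401 in PS_sal_62 and 3369 in PS_sal_68, and at 3302 in PS_dex_34, 4057 in PS_dex_6 and 3662 in PS_dex_64. In AS mice it was at 3272 in AS_sal_14, 2388 in AS_sal_40 and 3798 in AS_sal_8, and at 3394 in AS_dex_38 and 4038 in AS_dex_42. DEX and saline libraries overlapped in each phenotype.

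The log2 difference of Nedd4l after DEX was 0.32 (95% interval -0.03 to 0.66) in controls, 0.11 (-0.27 to 0.50) in PS mice and 0.26 (-0.13 to 0.64) in AS mice. Averaged it was 0.23 (0.02 to 0.44) and was not called. Both PS saline libraries lay above the 3 control saline libraries, at a log2 difference of 0.33 (-0.06 to 0.71). The AS saline libraries spread widely, with AS_sal_40 the lowest, and the log2 difference from control saline was 0.20 (-0.15 to 0.54).

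Nedd4, the founding member of the ligase family, held a high and narrow level. It stood at 27583 normalized counts in con_sal_102, 25061 in con_sal_104 and 23341 in con_sal_114, and at 27929 in con_dex_101, 25581 in con_dex_116 and 31336 in con_dex_122. In PS mice it was at 31028 in PS_sal_62 and 30403 in PS_sal_68, and at 26296 in PS_dex_34, 29280.4 in PS_dex_6 and 26581 in PS_dex_64. In AS mice it was at 28990.5 in AS_sal_14, 21787.5 in AS_sal_40 and 29491 in AS_sal_8, and at 27617 in AS_dex_38 and 29088 in AS_dex_42. The PS saline pair lay above all other saline libraries and above the PS DEX libraries, and AS_sal_40 was the lowest of the 16.

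The log2 difference of Nedd4 after DEX was 0.16 (95% interval -0.11 to 0.43) in controls, -0.17 (-0.47 to 0.13) in PS mice and 0.10 (-0.20 to 0.40) in AS mice. Under saline it was 0.28 (-0.02 to 0.58) for PS against control and -0.21 (-0.51 to 0.09) for AS against PS. These contrasts share the PS saline libraries, and none was called. The ratio of Nedd4l to Nedd4, both per kb, was 0.0695 ± 0.00671 over the 8 saline and 0.0794 ± 0.00582 over the 8 DEX libraries, with overlapping ranges.

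Ndrg1, a stress-responsive gene that is also prominent in myelinating glia, did not separate any pair of groups. Its group means ran from 3920.1 ± 599.6 normalized counts in PS DEX (SD, n = 3) to 4502 ± 482 in control saline (n = 3). Single libraries ran from 3740.2 to 4895 under saline and from 3330.5 to 4539 after DEX. The log2 differences after DEX were -0.11 (95% interval -0.37 to 0.16) in controls, -0.03 (-0.33 to 0.26) in PS mice and -0.05 (-0.34 to 0.25) in AS mice.

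Counted over the 5 genes, Sgk1 and Sgk3 were called after DEX in controls (2 of 5), where 1.26% of all genes were called, and in PS mice (2 of 5, against 0.703% of all genes). They were also called in AS mice (2 of 5, against 0.689%) and in the average over phenotypes (2 of 5, against 4.31%). DEX and saline libraries did not overlap for 2 of 5 genes in controls (15.9% of all genes), 3 of 5 in PS mice (21.3%) and 2 of 5 in AS mice (29.8%). The third gene in PS mice was Nedd4, which was lower. In AS mice both calls were lost without AS_dex_42, where the log2 differences were 0.90 for Sgk1 and 1.86 for Sgk3, and when only the 5 AS libraries were fitted. The genes were put together for these contrasts, so the counts carry no test.

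Under saline, limma called none of the 5 genes between any 2 phenotypes and 0% of all genes in each of the 3 comparisons, where DESeq2 called 4 genes between PS and control, 11 between AS and control and 1 between AS and PS. The libraries did not overlap for 3 of 5 genes in PS against control (Sgk1, Nedd4l and Nedd4, all higher), a separation that 28.5% of all genes showed. They did not overlap for 1 of 5 in AS against control (Sgk1, against 4.49% of all genes) and for 1 of 5 in AS against PS (Nedd4, lower, against 23.6%). After DEX limma called none of the 5 genes, and of all genes 0% between PS and control, 0.00689% between AS and control and 0% between AS and PS, where DESeq2 called 0, 12 and 5 genes.

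**Figure D3:**
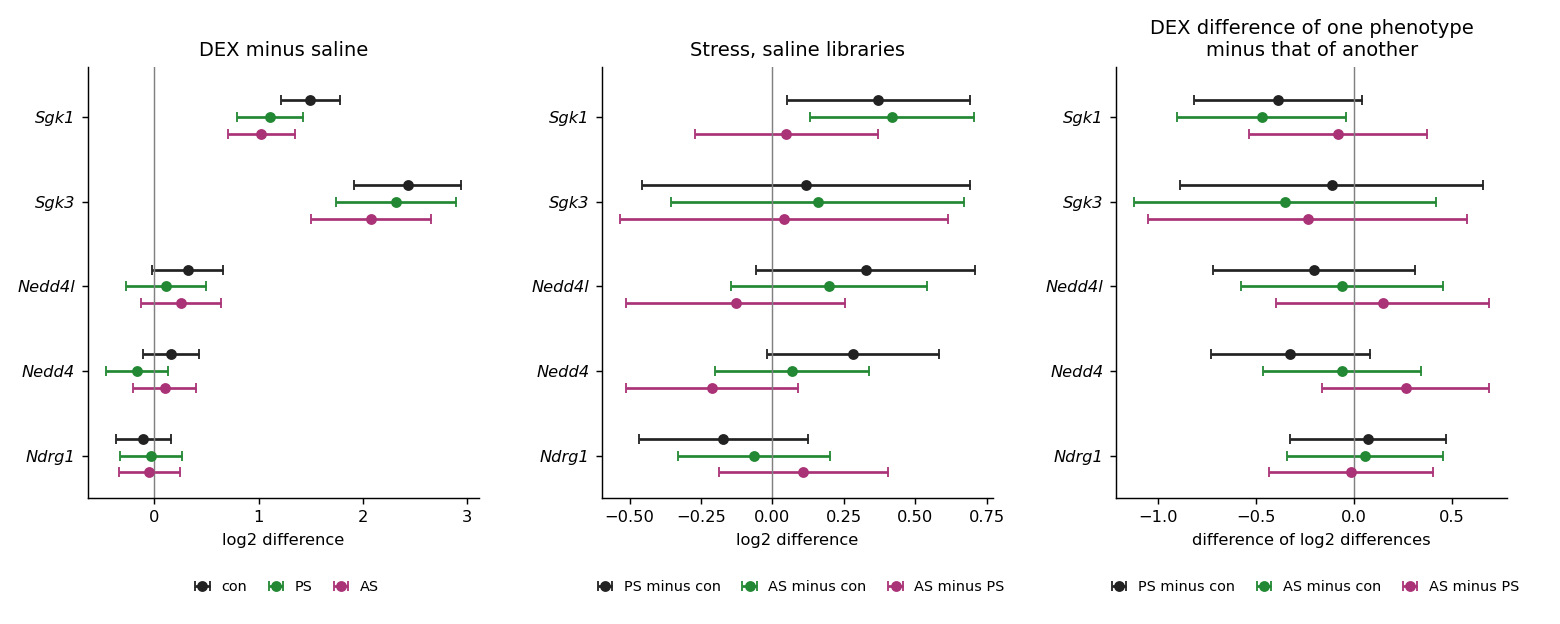
Log2 differences with 95% intervals for the 5 genes after DEX in each phenotype (left), between phenotypes under saline (middle) and for one phenotype's DEX difference minus another's (right). The DEX differences of Sgk1 and Sgk3 lie well above 0, and among the interactions shown at right the interval of Sgk1 in AS minus control, -0.90 to -0.04, leaves out 0.

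Whether the DEX response depended on coping phenotype was tested with the interaction of phenotype and DEX. The genes were not chosen by this interaction, but it is computed from DEX differences that were already known. In limma, 0 of the 15 tests (5 genes in 3 interactions) passed, 1 had an unadjusted p under 0.05, and edgeR and DESeq2 called 0. Over all genes, limma and edgeR called 0% for PS minus control, 0% for AS minus control and 0% for AS minus PS, with 304, 583 and 421 unadjusted limma p-values under 0.05, and DESeq2 called 0, 0 and 1 gene.

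The test nearest to the threshold was that of Sgk1 in AS mice, whose DEX difference was smaller than that of controls by a log2 value of -0.47 (SE 0.20, 95% interval -0.90 to -0.04). Its limma p was 0.0341 unadjusted and 0.941 adjusted over all genes. For PS minus control the Sgk1 value was -0.39 (-0.82 to 0.04; limma adjusted p = 0.9996) and for AS minus PS it was -0.08 (-0.53 to 0.37; adjusted p = 0.941). The Sgk1 saline values above, higher in stressed mice, enter these same contrasts, and both phenotypes were compared with the same control libraries.

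For Sgk3 the interaction was -0.11 (95% interval -0.89 to 0.66) for PS minus control and -0.35 (-1.12 to 0.42) for AS minus control, so neither an equal nor a much smaller response in AS mice was left out by the interval. Without con_sal_104, the library with the lowest Sgk3 level, these values were 0.16 and -0.08, and neither was called. Nedd4 gave -0.32 (-0.73 to 0.08) for PS minus control, Nedd4l -0.21 (-0.72 to 0.31) and Ndrg1 0.07 (-0.32 to 0.47). With 2 or 3 libraries per group the intervals of the ligases were wider than their DEX differences.

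The genes around the kinases were read from 8 lists, of which 98 genes entered the counts. The lists were fixed with earlier results of these data known, so their counts and p-values are no independent test. Sgk2, the third SGK kinase, the sodium channel subunits Scnn1b and Scnn1g, Slc9a3 and Trpv4 were not listed, and Grik2 was left out because its symbol had 2 identifiers. In limma, 2 of the 98 genes (2.04%) passed after DEX in controls, both higher, and the same 2, Arrdc2 and Tsc22d3, in PS and in AS mice. Of all genes 1.26%, 0.703% and 0.689% were called in these contrasts. In the average over phenotypes 4 genes (4.08%) passed, all higher, a share close to the 4.31% of all genes. The median log2 difference of the 98 genes was 0.11 in controls, -0.05 in PS mice and 0.05 in AS mice, against 0.0042, -0.0044 and -0.0060 over all genes.

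Arrdc2, an arrestin-domain protein of the family that brings NEDD4-type ligases to their targets, rose 2.73-fold on average (log2 difference 1.45, SE 0.11, limma adjusted p = 3.34e-06). It ran from 394 to 594 normalized counts in the 8 saline libraries and from 950.3 to 1582 in the 8 DEX libraries. In AS mice the log2 difference was 1.47 (limma adjusted p = 0.00359), and without AS_dex_42 it was 1.45, at an adjusted p of 0.107. The other arrestin-domain genes Arrdc1, Arrdc3 and Arrdc4 had log2 differences of 0.18, 0.21 and -0.11 and were not called. Without AS_sal_40 limma called Arrdc3 in controls and in the average.

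Tsc22d3, the glucocorticoid-induced leucine zipper protein GILZ, which binds SGK1, rose 1.73-fold on average (log2 difference 0.79, SE 0.09, limma adjusted p = 0.000194). It ran from 3466 to 4407 normalized counts under saline and from 5355 to 8232 after DEX, without overlap. Its call in single phenotypes was weaker, with limma adjusted p-values of 0.0518 in controls, 0.0304 in PS mice and 0.0788 in AS mice. Leaving out single libraries raised them to at most 0.266 (con_dex_122), 0.311 (PS_sal_62) and 0.56 (AS_dex_38), and the calls in single phenotypes were lost without 5, 4 and 10 of the 16 libraries in turn.

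Foxo1, a transcription factor that Akt and SGK kinases phosphorylate and keep out of the nucleus, rose 1.56-fold on average (log2 difference 0.64, SE 0.11, limma adjusted p = 0.00254). Its range was 513 to 852 normalized counts under saline and 847 to 1266 after DEX, and limma and edgeR did not call it within any single phenotype, whereas DESeq2 called it in controls, in PS and in AS mice. Without AS_sal_40 limma called it in controls and PS mice, and without AS_sal_14 in AS mice. Foxo3 and Foxo4, at 0.26 each, were not called by limma or edgeR, though Foxo3 was near the threshold in the average (limma adjusted p = 0.104). Foxo3 was called by DESeq2 and, in limma, with TMM scaling or a mean of at least 100 normalized counts. Leaving out con_dex_116, con_sal_102, AS_sal_40 or AS_sal_8 also brought a limma call of Foxo3 in the average. Pikfyve, another substrate on the list, was called by DESeq2 in controls.

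Usp2, a ubiquitin protease that opposes NEDD4L at sodium channels, rose 1.53-fold on average (log2 difference 0.61, SE 0.14, limma adjusted p = 0.0293). Its saline libraries ran from 819 to 1245 normalized counts and its DEX libraries from 1020.2 to 2112, with overlap. The call was lost without PS_sal_68 (limma adjusted p = 0.102) and without AS_dex_38 (0.123). Usp10 and Usp36 had log2 differences of -0.08 and 0.13 and were not called.

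In limma the other lists held no called gene in any DEX contrast. Of 18 upstream kinases, phosphatases and their subunits, limma called 0 in the average, edgeR called Prr5l and DESeq2 called Prr5l and Pik3r1. Both were near the limma threshold, at adjusted p-values of 0.108 and 0.105. In alternative fits limma called Prr5l with a mean of at least 100 normalized counts and without PS_sal_62 or AS_sal_14. It called Pik3r1 with TMM scaling and without con_sal_114 or AS_sal_8. The averaged values were small for the central kinases, with Pdpk1 at 0.05, Rictor at 0.20 and Mtor at 0.09 on the log2 scale, while 2 of the 18 genes had an unadjusted limma p under 0.05. Of 10 AGC relatives 0 were called by any of the 3 tools and 2 had an unadjusted p under 0.05, with Akt1 at -0.11 and Akt2 at -0.03.

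Among ligases and targets the picture was similar. Of the 7 other NEDD4 family ligases 0 were called by any of the 3 tools, with log2 differences from -0.14 (Wwp2) to 0.17 (Hecw1) and 0 unadjusted p-values under 0.05, and of the 3 other NDRG genes 0 were called (-0.11 to -0.04). Of 23 channels and transporters 0 were called and 4 had an unadjusted p under 0.05. The serotonin transporter Slc6a4 was at -0.07 and Scnn1a at -0.12, and the largest value was 0.60 for the potassium channel gene Kcnq3 (limma adjusted p = 0.286), which limma called without con_sal_102.

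edgeR called 5 and DESeq2 7 of the 98 genes in the average, adding the mTORC2-associated gene Prr5l (log2 difference -0.57) in both and Foxo3 and the PI3-kinase subunit Pik3r1 (0.27) in DESeq2. For the interactions, limma, edgeR and DESeq2 each called 0 of the 98 genes, and limma gave 4, 3 and 2 unadjusted p-values under 0.05 for PS minus control, AS minus control and AS minus PS. Under saline all 3 tools called 0, with 7 unadjusted limma p-values under 0.05 between PS and control, 0 between AS and control and 3 between the 2 coping phenotypes. After DEX all 3 tools called 0, with 0, 3 and 0 unadjusted limma p-values under 0.05.

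**Figure D4:**
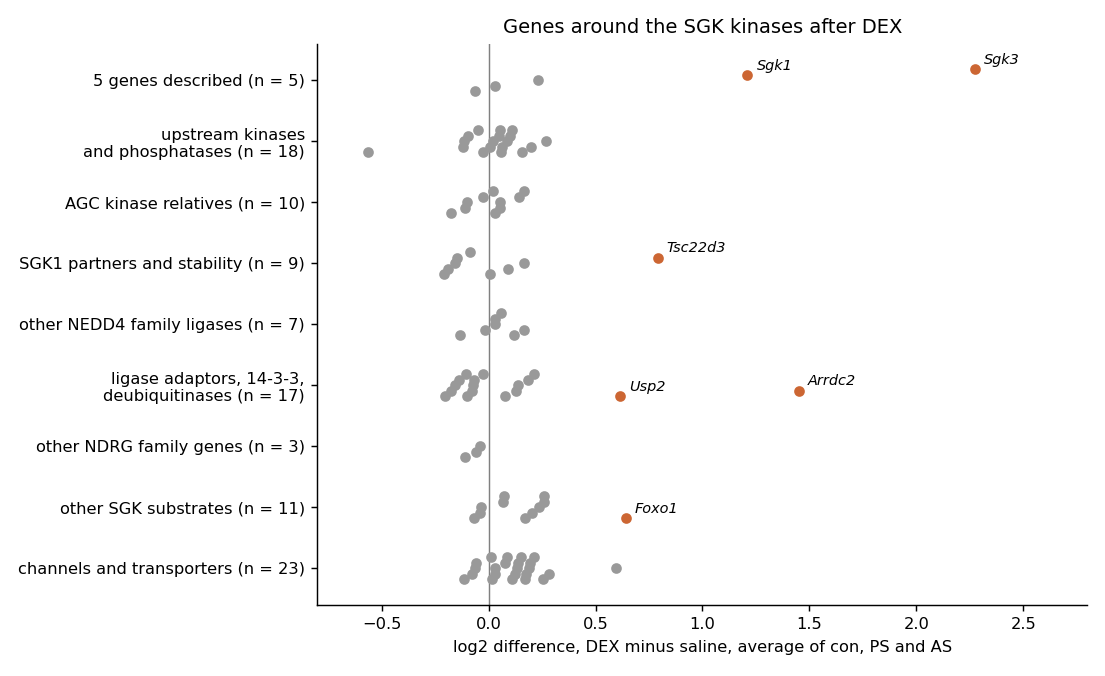
Log2 difference after DEX, averaged over the 3 phenotypes, for the 5 genes and for 98 genes of 8 lists (1 point per gene, vertical offsets only for visibility). Orange points are called by limma at an adjusted p under 0.1, which are Sgk1 and Sgk3, at 1.21 and 2.28, and the 4 labelled list genes, all higher.

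Genes with the most similar profile over the 16 libraries were found by the root mean square (RMS) of the difference between centered log2 values. Nearest to Sgk1 were Tma16 (RMS 0.211), the serotonin receptor gene Htr1d (0.2205) and Tspan4 (0.254), against an RMS of 0.643 of Sgk1 around its own mean. Htr1d had log2 differences after DEX of 1.09 in controls, 0.73 in PS mice and 0.74 in AS mice. Nearest to Sgk3 were the sulfotransferase gene Sult1a1 (0.252), Fkbp5 (0.280), which encodes a co-chaperone of the glucocorticoid receptor, and Fsd2 (0.307), against 1.18 of Sgk3 itself.

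The neighbors of the other 3 genes were Ssh2, Zkscan16 and Arid2 for Nedd4l (RMS from 0.0782 to 0.0790), Eif4g1, Golga3 and Fbxl17 for Nedd4 (0.0515 to 0.0545) and Immt, Anapc15 and Srxn1 for Ndrg1 (0.0832 to 0.0862). The RMS around their own mean was 0.231 for Nedd4l, 0.142 for Nedd4 and 0.141 for Ndrg1. All 12862 other genes with a mean of at least 100 normalized counts were compared, and these values are descriptions without a test.

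Markers of the cell types in the punches were read beside these results. Tph2, which defines serotonin neurons, was at 91764 to 182191 normalized counts in every library, and 0 of 7 serotonin neuron markers were called after DEX in the average, their sum running from 323131 to 464797 normalized counts under saline and from 307184 to 454703 after DEX. Of 10 mature oligodendrocyte markers, all detected in every library, 5 were called lower by limma in that contrast, where 1.53% of all genes were called lower and 2.78% higher, with a sum of 133235 to 219212 under saline and 130852 to 183454 after DEX. Of 7 microglia markers 3 were called lower, with sums of 4842 to 6842 and 4200.1 to 4889.6. Fewer cells of a type and less RNA per cell cannot be told apart in bulk tissue, and this holds for every level given here.

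With the oligodendrocyte markers as a covariate, the averaged log2 difference was 1.29 for Sgk1 and 2.59 for Sgk3, and both were called. That of Ndrg1 was 0.16 in place of -0.06 and not called. Arrdc2 and Tsc22d3 were still called in the average, and Foxo1 and Usp2 were not. The log2 difference of Foxo1 was then 0.44 in place of 0.64 (limma adjusted p = 0.592) and that of Usp2 0.37 in place of 0.61 (limma adjusted p = 0.929). The covariate itself differed with treatment, averaging 0.24 in the saline and -0.24 in the DEX libraries. With it the SE of the averaged difference was 0.14 for Sgk1 and 0.23 for Sgk3, against 0.08 and 0.15 without it. These fits therefore cannot tell oligodendrocyte content apart from DEX, and a lost call is no test of it. The part of microglia was not tested. Of the other lists, 1 of 7 astrocyte markers was called higher and 1 lower, 1 of 5 oligodendrocyte precursor markers higher, 1 of 7 endothelial markers lower, and 0 of 6 neuronal, 7 ependymal, 3 choroid plexus and 4 blood markers, where the choroid plexus marker Ttr was at 0 in 1 library. Lists without a call still varied between libraries. Within PS DEX the ependymal sum ran from 1023 normalized counts in PS_dex_6 to 12766 in PS_dex_64. AS_sal_40 had the highest blood sum, 2185, and the highest microglia sum, 6842. It was also the highest saline library for Sgk1 and Sgk3 and the lowest library for Nedd4. The part of these contents in the values of the 5 genes was not tested.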

How the data were processed

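The authors trimmed reads with fastp 0.20.1, aligned them with HISAT2 2.2.1 to GRCm38 (mm10), counted them with featureCounts (Subread 2.0) on GENCODE vM22 and normalized them in DESeq2 1.36.0. The deposited values are a signal, normalized counts, which are read counts divided by 1 size factor per library. All values times that factor were whole reads within 0.1 (100%), which gave depths of 38207157 to 62447298 reads in 14504 listed genes. The authors' tables of comparisons hold log2 fold changes, p-values and adjusted p-values and were not used. Libraries were grouped by their titles.

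Here, limma 3.58.1 (R 4.3.3) estimated the 6 group means of log2(normalized count + 1) from all 16 libraries together, with a mean-variance trend. P-values were adjusted by Benjamini-Hochberg over all genes within a contrast and called under 0.1, and 95% intervals came from the same fit. This scale understates the change of low genes. Replicates are separate animals. edgeR 4.0.16 and DESeq2 1.42.0 were run on the recovered whole reads. The other alternatives were pseudocounts of 0.1 and 10, a mean of at least 100, TMM scaling, only the compared groups, an oligodendrocyte covariate (mean log2 deviation of 10 markers) and leaving out each library. Scripts were tested on simulated data.

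The 5 genes and all lists were chosen with earlier results of these data known. Named were the 5 genes, list genes called in any contrast, up to 20 by smallest p in the average, the 3 nearest genes by profile and the marker lists, while uncalled list genes given as examples were chosen after their values were seen. Coordinates and exon lengths came from GENCODE vM21 (GRCm38), matched without version, for 14499 genes, and promoters from RefSeq. No Nedd4l promoter is reported here.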

Additional observations from a re-analysis of the deposited data

How the results depend on the processing

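Over 1060 refits of single differences of the 5 genes (DEX, stress and interaction), none changed the direction of a called value and 1055 moved by less than 1 residual SD. The 5 others came from the oligodendrocyte covariate, namely Sgk3 in AS mice (2.47 against 2.08) and Ndrg1 in each DEX contrast. The averaged DEX difference ran from 1.16 to 1.29 for Sgk1 and from 2.18 to 2.59 for Sgk3. In AS mice both lost the call when only the AS libraries were fitted, with fewer samples, and without AS_dex_42, at 0.90 for Sgk1 and 1.86 for Sgk3. The Sgk1 interaction of AS minus control ran from -0.62 without AS_sal_14 to -0.34 without AS_dex_38 and was never called. No interaction of the 5 genes was called in any alternative, leaving out single libraries included (0 to 0).

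Of the 98 list genes, 4 called in the average became 7 with DESeq2 and 2 with the covariate, and 3 to 7 leaving out single libraries. In controls 2 became 4 with DESeq2 and 1 with the covariate (1 to 4 leaving out libraries). In PS mice 2 became 1 with only the compared groups and 1 with the covariate (1 to 3). In AS mice 2 became 0 with both (0 to 2). Stress contrasts stayed at 0 (0 to 0). Tsc22d3 lost its call in 6 of 24 alternatives in controls, 6 in PS mice and 12 in AS mice, and in the average Usp2 lost it without PS_sal_68 or AS_dex_38. Over all genes DESeq2 called 437 after DEX in controls and 274 in AS mice, against 183 and 100 in limma, 187 in PS mice, against 0.703% of genes, and 11 between AS and control under saline, against 0. TMM scaling moved the median of all genes by under 0.1. No paired analysis was possible because the library numbers differ between groups. With 2 libraries in PS saline and AS DEX, comparisons with these groups are the least precise.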
